A study of Mus musculus with 49 samples.

Results

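Single mouse embryonic stem (ES) cells with strongly uneven chromosome coverage were compared with evenly covered cells of the same library. Each cell had been profiled by Hi-C, which joins and sequences pairs of DNA segments that lay close together in the nucleus. The members were selected on measured values. For each cell the deposited tables give the largest deviation of any chromosome's coverage, and a cell was called uneven where this deviation was 1 or more, even where it was below 0.5, and in between otherwise. A cell also had to hold at least 20000 contacts in the diploid tables or 10000 in the haploid table, whatever the authors' quality flag. Of 5871 cells listed, 4682 reached the contact minimum, and 246 of these were uneven. There were 112 uneven cells in diploid 2i, 21 in diploid serum and 113 in the haploid table, beside 967 in between and 3469 even cells. The tables name neither the chromosome nor the direction of its deviation and do not define the scale, so a gained and a lost chromosome cannot be told apart here.

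Mouse ES cells divide quickly in culture and can gain or lose whole chromosomes over passages. Lines with 2 X chromosomes are known to lose an X, and haploid ES cells tend to return to a diploid state. A cell in S phase also carries uneven copy number along its chromosomes, because early-replicating DNA is copied before late-replicating DNA. Compartments are the large-scale separation of active from inactive chromatin, seen as preferred contacts of like with like within a chromosome (cis) or between chromosomes (trans). Insulation is the depletion of contacts across the borders of folded domains.

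The cells came from 45 Hi-C libraries, 20 of the haploid ES line H129-1 and 25 of a diploid F1 hybrid ES line from a 129/SV-Jae by castaneus cross. Both lines are established cultures. In 2i, a medium whose kinase inhibitors keep ES cells undifferentiated, they grew without feeder cells. In fetal bovine serum they grew on feeder cells, which were depleted before Oct-3/4-positive cells were sorted. Some cultures were also sorted on Hoechst and Geminin, which mark DNA content and the part of the cycle after G1. The haploid table holds the conditions 2i_G1, 2i_all and Serum_G1/S, diploid serum the conditions 1CDS1 and 1CDS2, and diploid 2i the conditions 1CDU and NoSort and the gates 1CD_G1, 1CD_eS, 1CD_mS and 1CD_lS_G2. No label states that each library is a culture of its own, and p-values therefore measure the spread between libraries, which may be technical. The haploid table holds 20 libraries, diploid serum 8 and diploid 2i 18, with diploid 2_14 in both diploid tables. No cell name occurred in more than 1 table, and no sequencing lane with barcode pair was listed for 2 cells, although 228 of 241 barcode pairs were reused in more than 1 library. The contacts of a library's cells above the minimum summed to between 332107 and 34555700 in the haploid table, between 4010540 and 50832700 in diploid serum and between 1692030 and 52467700 in diploid 2i.

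A group of cells far beyond the limit stood apart in each table, with 5 haploid, 1 diploid serum and 4 diploid 2i cells at 3 to below 6. Most uneven haploid cells lay just past the limit of 1 or far beyond it, while in diploid serum the range between held the largest group. Among haploid cells, 41 uneven ones had a deviation below 1.2, 41 had 6 or more, and 31 lay between. In diploid 2i these counts were 66, 15 and 31, and in diploid serum 7, 5 and 9. The median deviation of uneven cells was 1.62 in haploid, 1.48 in diploid serum and 1.14 in diploid 2i cells, and the highest values were 9.93, 8.35 and 9.87. The limit itself cut through a mode in some conditions. In Serum_G1/S, 215 of 707 cells (30.4%) had a deviation of 0.7 to below 1 and a further 32 (4.53%) had 1 to below 1.2. In 2i_G1 only 4 of 299 cells (1.34%) lay at 0.7 to below 1. Among the diploid gates the range of 0.7 to below 1 held 42 of 289 1CD_mS cells (14.5%), 43 of 327 1CD_eS cells (13.1%), 42 of 315 1CD_G1 cells (13.3%) and 23 of 341 1CD_lS_G2 cells (6.74%).

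**Figure D1:**
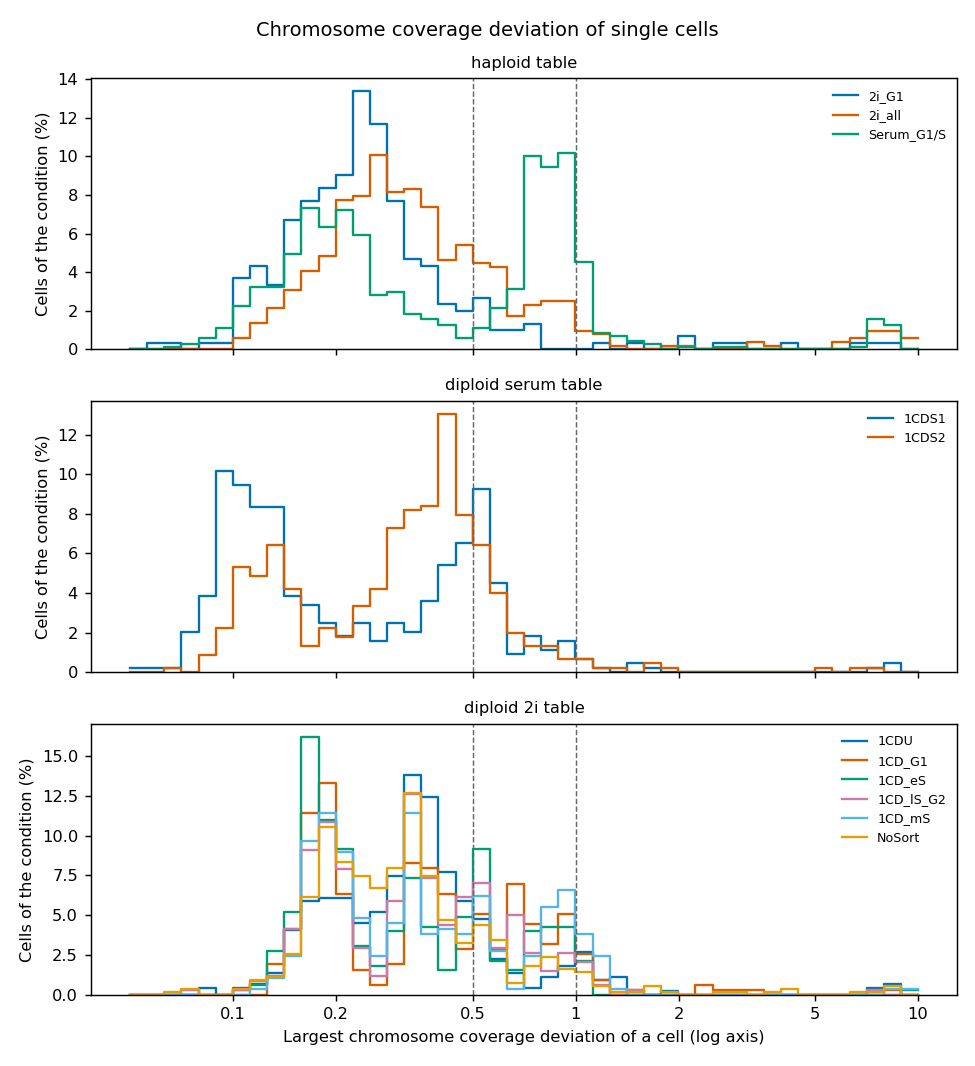
Largest chromosome coverage deviation of a cell (log axis) against the percent of the condition's cells in each step, for the haploid, diploid serum and diploid 2i tables. Dashed lines mark 0.5 and 1. A mode of Serum_G1/S cells lies mostly just below the limit of 1, and a small separate group of cells lies beyond 6 in each table.

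The cells nearest to the limits were close together. The lowest deviation among uneven cells was 1.008 in haploid, 1.001 in diploid serum and 1.002 in diploid 2i cells, and the highest below 1 was 0.9997, 0.984 and 0.998. Within 0.1 of the limit, 32 haploid cells lay above and 75 below, 5 diploid serum cells above and 7 below, and 45 diploid 2i cells above and 69 below. The lowest contact number of an uneven cell was 10857 in haploid, 22216 in diploid serum and 20467 in diploid 2i. Below the contact minimum a deviation of 1 or more was listed for 77 of 250 haploid, 56 of 280 diploid serum and 148 of 659 diploid 2i cells (30.8%, 20.0% and 22.5%). These shallow cells were not used further.

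Uneven cells made up 7.42% of haploid cells (95% exact binomial interval 6.16 to 8.86%), 2.35% of diploid serum cells (1.46 to 3.56%) and 4.94% of diploid 2i cells (4.09 to 5.92%). These intervals cover counting error only. Deviations of 3 or more were found in 46 of 1522 haploid cells (3.02%), 6 of 895 diploid serum cells (0.670%) and 19 of 2265 diploid 2i cells (0.839%). Within the haploid line, Serum_G1/S had 70 uneven cells of 707 (9.90%), 2i_all had 33 of 516 (6.40%) and 2i_G1 had 10 of 299 (3.34%). In diploid 2i the share was highest in 1CD_mS, with 21 of 289 (7.27%), and lowest in 1CD_eS, with 8 of 327 (2.45%). It was 6.11% in 1CDU, 5.71% in 1CD_G1, 4.90% in NoSort and 3.23% in 1CD_lS_G2. Both diploid serum conditions lay close together, at 2.26% in 1CDS1 and 2.43% in 1CDS2.

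Uneven cells were spread over many libraries. They occurred in 18 of 20 haploid libraries, 7 of 8 diploid serum libraries and 17 of 18 diploid 2i libraries. The largest number in a haploid library was 21 of 167 cells in haploid 20 (12.6%, interval 7.96 to 18.6%). In diploid 2i the highest share was 12 of 151 cells in diploid 13 (7.95%, interval 4.17 to 13.5%), and diploid 27 had 0 of 20 cells, which allows a share of up to 15.0% by 3 counts of the total, the bound used for each count of 0. In diploid serum the highest share was 4 of 84 cells in diploid 7 (4.76%), and diploid 1_6 had 0 of 23, which allows up to 13.04%. The highest haploid share, 1 of 6 cells in haploid 16 (16.7%, interval 0.421 to 64.1%), rests on a single cell. The haploid libraries haploid 5 and haploid 9 had 0 of 4 and 0 of 11 cells, which allows up to 75% and 27.3%.

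Shares of in between cells varied widely between haploid libraries. They were 52.8% of the cells in haploid 1, 29.3% in haploid 3 and 34.1 to 39.5% in the 4 large Serum_G1/S libraries, against 2.90% in haploid 6, 10.1% in haploid 8 and 11.4% in haploid 7. These 5 libraries outside Serum_G1/S were all of the condition 2i_all, and their uneven shares lay between 3.62 and 13.04%, the highest in haploid 6. The part of culture and library handling in these shares was not tested.

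**Figure D2:**
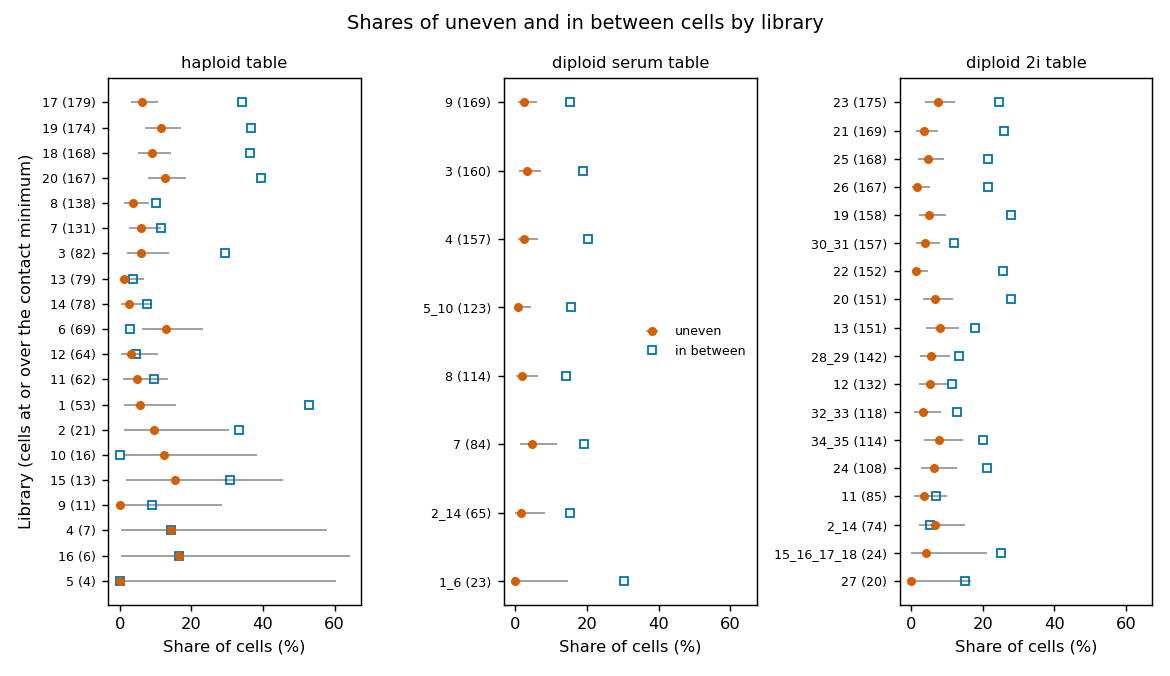
Percent of uneven cells (filled circles with 95% exact binomial intervals) and of in between cells (open squares) in each library of the haploid, diploid serum and diploid 2i tables, with cell numbers in brackets and the largest libraries on top. The 4 large Serum_G1/S libraries, haploid 17 to haploid 20, hold 34.1 to 39.5% in between cells.

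Uneven diploid cells were of contrasting kinds in their contacts between chromosomes. The share of contacts between chromosomes is high where pairs are joined regardless of position. Among passing diploid 2i cells it never exceeded 14.7%. Of the uneven diploid 2i cells, 20 of 112 (17.9%, interval 11.3 to 26.2%) lay above that limit, against 10 of 444 in between cells (2.25%, interval 1.09 to 4.10%) and 23 of 1709 even cells (1.35%, interval 0.855 to 2.01%). These 20 cells came from 10 libraries and had 22.1 to 62.5% of contacts between chromosomes, with a median of 48.0%. The other 92 uneven cells had 1.06 to 11.1%, with a median of 5.43%, so no uneven cell lay between 11.1 and 22.1%. The groups did not overlap in this measure by the way they were formed.

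The cells over the limit carried little compartment structure. Their median cis compartment score was 0.104 and their median trans compartment score 0.015, against 0.399 and 0.263 in the remaining 92 uneven cells and 0.414 and 0.297 in even cells. The alignment score, a deposited measure of how trans contacts line up along chromosomes whose scale is not stated, had a median of 0.016 in cells over the limit, 0.246 in the remaining uneven cells and 0.282 in even cells. Low scores also occurred with even coverage. The 23 even cells over the limit had a median cis score of 0.241 and a median alignment score of 0.164.

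Cells over the limit were most frequent at middle deviations. Of the 31 diploid 2i cells with a deviation of 1.2 to below 6, 13 were over the limit. Of the 15 cells with a deviation of 6 or more, 2 were over it, and of the 66 cells below 1.2, 5 were. The 13 cells at 6 or more with a share up to the limit had a median of 5.07% of contacts between chromosomes, a cis score of 0.397 and a trans score of 0.248. They had a median of 149987 contacts, against 162021 over all 92 such uneven cells. No cell up to the limit had a deviation between 2.59 and 6.79. The 61 cells below 1.2 and up to the limit had medians of 0.442 in cis and 0.269 in trans. In diploid serum 2 of 21 uneven cells were over that table's limit of 14.6%, both in diploid 3, and none of the 5 cells at 6 or more was.

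**Figure D3:**
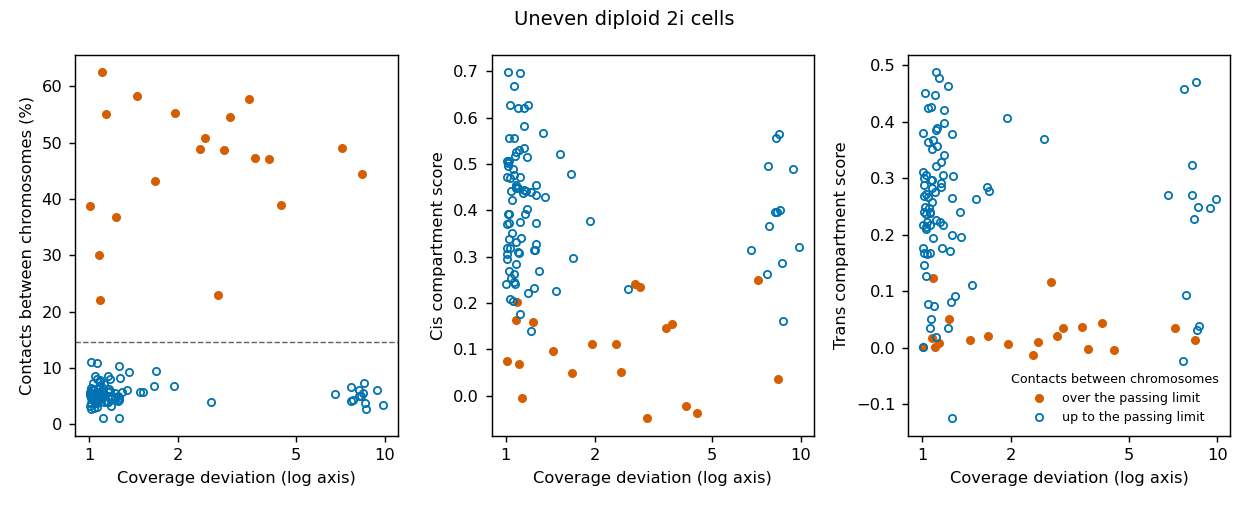
Contacts between chromosomes, cis compartment score and trans compartment score of each of the 112 uneven diploid 2i cells against its coverage deviation (log axis). Filled points are the 20 cells above the highest passing share of contacts between chromosomes (dashed line, 14.7%), open points the other 92. Filled points lie at low compartment scores at any deviation.

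The comparison of uneven with even cells within library and condition asked whether folding and depth differ between them. A library difference needed at least 5 cells of each class, which 12 diploid 2i, 8 haploid and 1 diploid serum library had. Differences were tested over libraries with a two-sided sign-flip permutation test, and p-values were adjusted by Benjamini-Hochberg over the 12 tests of the diploid 2i and haploid tables. Depth, contacts between chromosomes, alignment, both compartment scores, undigested fragments and duplicated fragment ends could be compared in diploid 2i. Alignment and contacts between chromosomes were not listed for uneven haploid cells. The deposited insulation, distance bands, replication score, loop enrichments and cycle phase were listed for passing cells only, and none of the 246 uneven cells had passed.

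In diploid 2i, uneven cells had fewer contacts and weaker compartments, and 6 of 7 columns, contacts included, passed the test. None passed with a minimum of 50000 contacts, which left 9 libraries (lowest permutation adjusted p = 0.0703), nor when the classes were not paired within a library (lowest permutation adjusted p = 0.0571). Library means of contacts per cell were lowest at 60693, median 153773 and highest at 304801 in uneven cells, against 126806, 204556 and 314591 in even cells. The ranges overlapped, but uneven cells were lower in 11 of 12 libraries, diploid 23 being the exception. The mean was 162832 ± 73316 in uneven and 213415 ± 63162 in even cells (SD, n = 12 libraries), a difference of -50583 ± 45400 (permutation adjusted p = 0.00879). On the log2 scale the difference was -0.44, a geometric ratio of 0.736. Contacts also set the minimum of the selection. A deviation of 1 or more was listed for 22.5% of diploid 2i cells below that minimum, against 4.94% of those that reached it. The test of contacts is therefore not independent of how the cells were chosen, and the difference is a description.

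Compartment scores fell in uneven diploid 2i cells. The trans compartment score averaged 0.225 ± 0.066 in uneven and 0.291 ± 0.036 in even cells, was lower in 11 of 12 libraries and passed the permutation test (adjusted p = 0.00879). Its lowest, median and highest library means were 0.094, 0.225 and 0.334 in uneven cells, against 0.212, 0.304 and 0.330 in even cells. The cis compartment score averaged 0.355 ± 0.077 in uneven and 0.406 ± 0.037 in even cells and was lower in 10 of 12 libraries (permutation adjusted p = 0.00879). The largest gap was in diploid 20, a 1CD_G1 library, with 0.178 in uneven and 0.348 in even cells. Of its 10 uneven cells, 5 were over the limit of contacts between chromosomes. Diploid 2_14 and diploid 21 ran the other way. The alignment score averaged 0.221 ± 0.065 in uneven and 0.273 ± 0.033 in even cells and was lower in 9 of 12 libraries (permutation adjusted p = 0.0234).

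Contacts between chromosomes made up 11.3 ± 6.7% of contacts in uneven and 6.38 ± 1.07% in even cells, a share higher in 8 of 12 libraries (permutation adjusted p = 0.0488). This call moved with a few cells and libraries. With medians over cells in place of means the difference was 0.777 percentage points (permutation adjusted p = 0.891), and the call held in 4 of 12 fits that each left out a library. It was lost without diploid 12, 13, 19, 20, 23, 28_29, 30_31 or 34_35, and over all 12 fits the difference lay between 3.51 and 5.50 points. Duplicated fragment ends were 2.64 ± 0.87% in uneven and 3.04 ± 0.80% in even cells, lower in 11 of 12 libraries (permutation adjusted p = 0.00879). With even cells of matched depth that difference was -0.013 points (permutation adjusted p = 0.825). Undigested fragments were 40.3 ± 5.7% in uneven and 40.3 ± 6.2% in even cells (permutation adjusted p = 0.953).

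Compartment scores were also compared at matched depth and among cells limited in several quality columns. Against the 5 even cells nearest in contacts within the stratum, uneven cells differed by -0.066 in the trans score, -0.054 in the cis score and -0.056 in alignment (permutation adjusted p = 0.0205, 0.0215 and 0.0205). Limiting both classes to cells inside the passing cells' range of contacts, undigested and duplicated fragments and contacts between chromosomes kept 69 uneven cells in 10 libraries. Of all 112 uneven diploid 2i cells, 20 lay outside by contacts between chromosomes, 3 by undigested fragments and 0 by contacts or duplicated ends. These limits were applied at once to both classes, so the part of the cells over the limit alone was not tested. Among the kept cells the trans score was 0.255 in uneven and 0.295 in even cells, a difference of -0.040 that was lower in 8 of 10 libraries (permutation adjusted p = 0.082). The cis score was 0.405 in uneven and 0.414 in even cells, higher in 7 of 10 libraries (permutation adjusted p = 0.955), and alignment was 0.248 and 0.274 (permutation adjusted p = 0.223). Contacts per cell were 186669 in uneven and 221521 in even cells (permutation adjusted p = 0.223). Contacts between chromosomes were 5.61% in uneven and 6.40% in even cells, lower in 9 of 10 libraries (permutation adjusted p = 0.082), so the sign turned. No column passed in these limited cells.

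The trans score was lower in uneven cells in 5 of the 6 diploid 2i conditions, each of which held 1 to 3 libraries, whereas contacts between chromosomes were higher in 3 and lower in 3. The trans score difference was -0.107 in the 2 1CD_G1 libraries, -0.101 in the 1CD_lS_G2 library, -0.063 in 3 NoSort libraries, -0.062 in 3 1CDU libraries and -0.057 in 2 1CD_mS libraries, and 0.014 in the 1CD_eS library. Contacts between chromosomes differed most in 1CD_G1, by 15.98 points, and by 5.63 points in NoSort and 4.39 points in 1CDU. In the 1CD_eS, 1CD_lS_G2 and 1CD_mS libraries the difference was -1.72, -0.682 and -0.451 points.

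**Figure D4:**
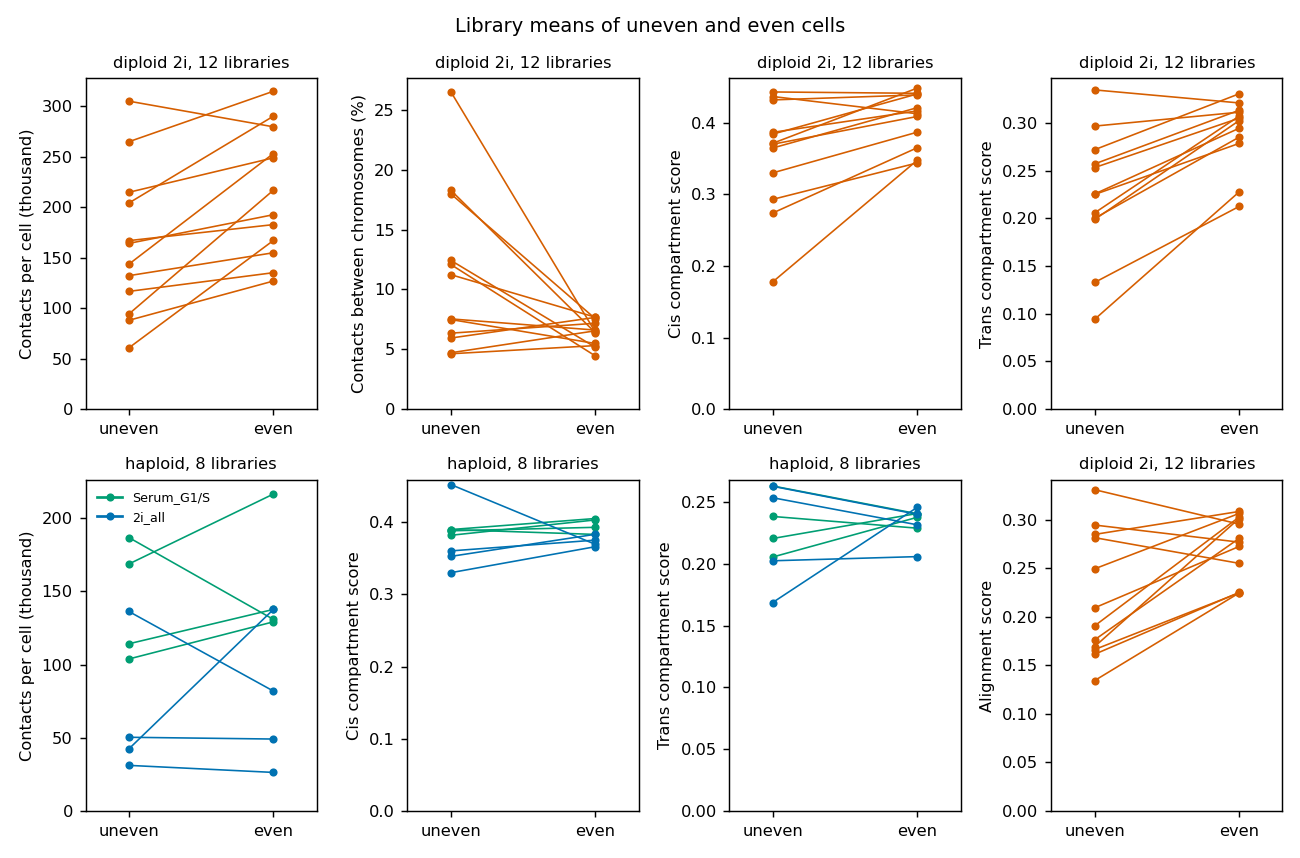
Library means of uneven cells (left) and even cells (right) joined by a line per library, in the unit of each axis, for 12 diploid 2i libraries and 8 haploid libraries (4 Serum_G1/S and 4 2i_all). Most diploid 2i lines run upward in contacts and compartment scores toward even cells, while haploid lines run both ways.

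Diploid serum had 1 library with enough cells, so no test was made at the same minimum. In diploid 3, 5 uneven cells averaged 248824 contacts, against 301675 in even cells, and 22.8% of contacts between chromosomes, against 6.82%. With a minimum of 3 cells, 4 libraries could be compared, and the smallest p their exact permutation test allows is 0.125. Contacts were lower in uneven cells in all 4, with 248824, 123608, 233725 and 283648 in uneven cells of diploid 3, 4, 7 and 9, against 301675, 177078, 341809 and 307397 in their even cells. Alignment was lower in all 4 too, at 0.202, 0.312, 0.220 and 0.185 in uneven cells, against 0.342, 0.335, 0.294 and 0.297 in even cells. Duplicated fragment ends were 2.16 ± 0.51% in uneven and 2.81 ± 0.30% in even cells (SD, n = 4), lower in all 4. The cis compartment score was 0.127 ± 0.018 in uneven and 0.128 ± 0.005 in even cells, 2 libraries lying each way, and the trans score 0.038 ± 0.021 and 0.032 ± 0.002, higher in 3 of 4.

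In the haploid table no column passed the test. Contacts per cell averaged 104253 ± 58803 in uneven and 113707 ± 59881 in even cells (SD, n = 8 libraries), with 4 libraries higher and 4 lower (exact permutation adjusted p = 0.833). Library means of uneven cells were lowest at 31134, median 109060 and highest at 186885, against 26316, 130106 and 216620 in even cells, an almost complete overlap. The cis compartment score was 0.380 ± 0.036 in uneven and 0.385 ± 0.015 in even cells, a difference of -0.004 that was lower in 6 of 8 libraries (exact permutation adjusted p = 0.953). Without haploid 7, where it was higher by 0.083, the difference was -0.017 (exact permutation adjusted p = 0.080). The trans score was 0.227 ± 0.034 in uneven and 0.234 ± 0.013 in even cells, 4 libraries lying each way (exact permutation adjusted p = 0.833). Undigested fragments were 31.1 ± 7.1% in uneven and 32.6 ± 9.4% in even cells (exact permutation adjusted p = 0.308), and duplicated fragment ends 1.29 ± 0.45% and 1.29 ± 0.33% (exact permutation adjusted p = 0.953). A p above the threshold does not show that the classes are alike.

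Library differences ran both ways in the haploid line. The largest negative difference in mean contacts was in haploid 7, with 42394 in uneven and 137697 in even cells. The largest positive one was in haploid 17, with 186885 in uneven and 130947 in even cells. An even haploid cell held 10388700 contacts, against 694428 in the highest passing cell, and its part in these means was not tested. Without haploid 7 the mean difference over libraries was 2811 contacts. By condition, the difference in contacts was -10192 ± 45450 in 4 Serum_G1/S libraries and -8715 ± 62623 in 4 2i_all libraries, haploid 7 among them. None of 5 columns differed between these conditions after adjustment, the nearest being undigested fragments, by 3.31 points (exact permutation p = 0.0857, adjusted p = 0.429). Medium and, by the condition names, sort change together in this contrast and cannot be told apart. Over cells, the 41 haploid cells at 6 or more had a median of 67564 contacts, the 31 at 1.2 to below 6 a median of 81362, and the 41 below 1.2 a median of 120362. Their median cis compartment scores were 0.364, 0.341 and 0.396, and their trans scores 0.222, 0.230 and 0.251. The score medians thus changed little between mild and strong deviations, whereas median contacts were lower at strong ones. The mix of conditions differed too, since Serum_G1/S gave 32 of the 41 cells below 1.2 and 21 of the 41 at 6 or more. These are descriptions over cells of several libraries, with no test.

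As scaled here, the uneven minus even difference was larger in diploid 2i than in the haploid line. In units of the SD of even cells in each table, contacts differed by -0.03 ± 0.15 in 8 haploid libraries and -0.35 ± 0.31 in 12 diploid 2i libraries (exact permutation of library labels, adjusted p = 0.0298). That SD was 328384 contacts in haploid even cells, above their mean of 105421, and the highest such cell held 10388700. In diploid 2i the SD was 144192. The wide haploid unit shrinks the haploid value, and contacts did not pass in their own unit. Contacts were also part of the selection. The trans compartment score differed by -0.07 ± 0.36 and -0.57 ± 0.34 (exact permutation adjusted p = 0.0298), and the cis score by -0.04 ± 0.38 and -0.47 ± 0.46 (exact permutation adjusted p = 0.0455). With a minimum of 3 cells the trans score did not pass (permutation adjusted p = 0.0676). Duplicated fragment ends differed by -0.003 ± 0.176 and -0.21 ± 0.17 (exact permutation adjusted p = 0.0365), while undigested fragments did not pass (exact permutation adjusted p = 0.288). The highest even haploid cell stood at 66.3% duplicated ends, against an upper quartile of 1.49%, which widens that unit too. Duplicated ends also passed in their own unit. Among cells inside the passing range of the other quality columns, none of the 5 passed, with the trans score at 0.01 ± 0.25 in 7 haploid and -0.35 ± 0.34 in 10 diploid 2i libraries (exact permutation adjusted p = 0.160). The contacts between chromosomes that moved with the diploid scores are not listed for uneven haploid cells, so a matching limit could not be set there. Line, table and batch number cannot be told apart in this contrast, and medium and sort differ too, since 4 of the 8 haploid libraries are Serum_G1/S and all 12 diploid libraries are 2i.

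Cells in between, mostly passing, were compared with even cells in the same way, over 49 tests in the 3 tables. Insulation, distance bands and replication score are listed for 338 of 367 haploid, 155 of 156 diploid serum and 414 of 444 diploid 2i cells. Loop enrichments are listed for the same haploid and diploid 2i cells and for none in diploid serum. In diploid 2i, 4 columns passed. Insulation was lower, at 2.32 ± 0.14 in in between and 2.36 ± 0.13 in even cells, in 13 of 14 libraries (permutation adjusted p = 0.0179). Library means of insulation were lowest at 2.11, median 2.32 and highest at 2.48 in in between cells, against 2.16, 2.35 and 2.53 in even cells, so the ranges overlapped and the shift was small. The trans compartment score was 0.266 ± 0.047 in in between and 0.293 ± 0.033 in even cells, lower in 13 of 15 libraries (permutation adjusted p = 0.0259). The near band, contacts at short distance along a chromosome, held 70.4 ± 7.2% of contacts in in between and 71.9 ± 6.8% in even cells (permutation adjusted p = 0.0374). The mitotic band, contacts at the longer distance favoured by condensed chromosomes, held 13.2 ± 2.6% in in between and 12.1 ± 2.1% in even cells, higher in 12 of 14 libraries (permutation adjusted p = 0.0259). Insulation passed without any single library, whereas the trans score did not pass without diploid 20, 24, 25, 28_29, 30_31 or 34_35, nor the mitotic band without these or diploid 21 (adjusted p up to 0.0518). The near band passed in 4 of 15 such fits, those without diploid 11, 12, 22 or 26. Insulation and both bands rest on 14 of these 15 libraries, so leaving out the remaining library removed none of their values.

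The other diploid 2i columns did not pass for in between cells. The mean distance of far contacts was 25.5 ± 2.6 Mb in in between and 26.5 ± 1.5 Mb in even cells, lower in 12 of 14 libraries (permutation adjusted p = 0.252). Contacts per cell were 199574 ± 79328 in in between and 208367 ± 70932 in even cells (permutation adjusted p = 0.462), so depth was close in both classes. The cis compartment score was 0.391 ± 0.040 in in between and 0.414 ± 0.035 in even cells, lower in 11 of 15 libraries (permutation adjusted p = 0.129). Alignment (0.270 in in between and 0.273 in even cells), the replication score (1.17 in each) and undigested fragments (39.3% and 39.5%) differed by less than their SD over libraries.

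The shares of phases differed over the pooled cells, but not past the test within libraries. Among passing diploid 2i cells, 109 of 414 in between cells (26.3%) were in G1, against 295 of 1578 even cells (18.7%), and 115 (27.8%) against 534 (33.8%) were in late S/G2. Within libraries the G1 share was 24.3% in in between and 19.4% in even cells, higher in 8 of 14 libraries (permutation adjusted p = 0.252). In a fit with the authors' phase added to the strata, with a minimum of 3 cells in place of 5 and only the passing cells, which alone have a phase, none of the 4 columns passed. The near band then differed by 0.091 points, the mitotic band by 0.109 points, the trans score by -0.005 and insulation by -0.024 (permutation adjusted p = 0.927, 0.741, 0.741 and 0.381). Contacts between chromosomes were 5.50% in in between and 6.13% in even cells in that fit, lower in 12 of 15 libraries (permutation adjusted p = 0.0439). Without phase and over all cells the difference was 0.139 points (permutation adjusted p = 0.994), where diploid 11 alone stood at 18.6% in in between and 9.39% in even cells. Among passing cells it was -0.813 points, lower in 13 of 14 libraries (permutation adjusted p = 0.0150).

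No column of the in between comparison passed in the other tables. The lowest adjusted p was 0.248 in diploid serum, for contacts per cell, which were 232603 ± 77608 in in between and 272270 ± 64447 in even cells, lower in 7 of 8 libraries (exact permutation test, unadjusted p = 0.0312). In the haploid table the replication score, a measure of how far early-replicating DNA has been copied, was 1.22 ± 0.05 in in between and 1.18 ± 0.03 in even cells (n = 11 libraries, permutation p = 0.0547, adjusted p = 0.252). Insulation there was 2.31 ± 0.09 in in between and 2.31 ± 0.05 in even cells. EE loop enrichment, the log2 enrichment of contacts at loops between early-replicating sites, was 1.08 ± 0.32 in in between and 0.95 ± 0.06 in even haploid cells (permutation adjusted p = 0.462). LL loop enrichment, the same at late-replicating sites, was 1.28 ± 0.32 in in between and 1.25 ± 0.18 in even haploid cells (permutation adjusted p = 0.947). In diploid 2i the EE value was 0.70 ± 0.12 in in between and 0.66 ± 0.06 in even cells, and the LL value 0.95 ± 0.20 and 0.88 ± 0.10 (permutation adjusted p = 0.448 and 0.340). In diploid serum insulation was 2.24 ± 0.07 in in between and 2.26 ± 0.06 in even cells, lower in 6 of 8 libraries (exact permutation adjusted p = 0.319), and the near band 70.1 ± 5.1% and 72.8 ± 1.9% (exact permutation adjusted p = 0.337).

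**Figure D5:**
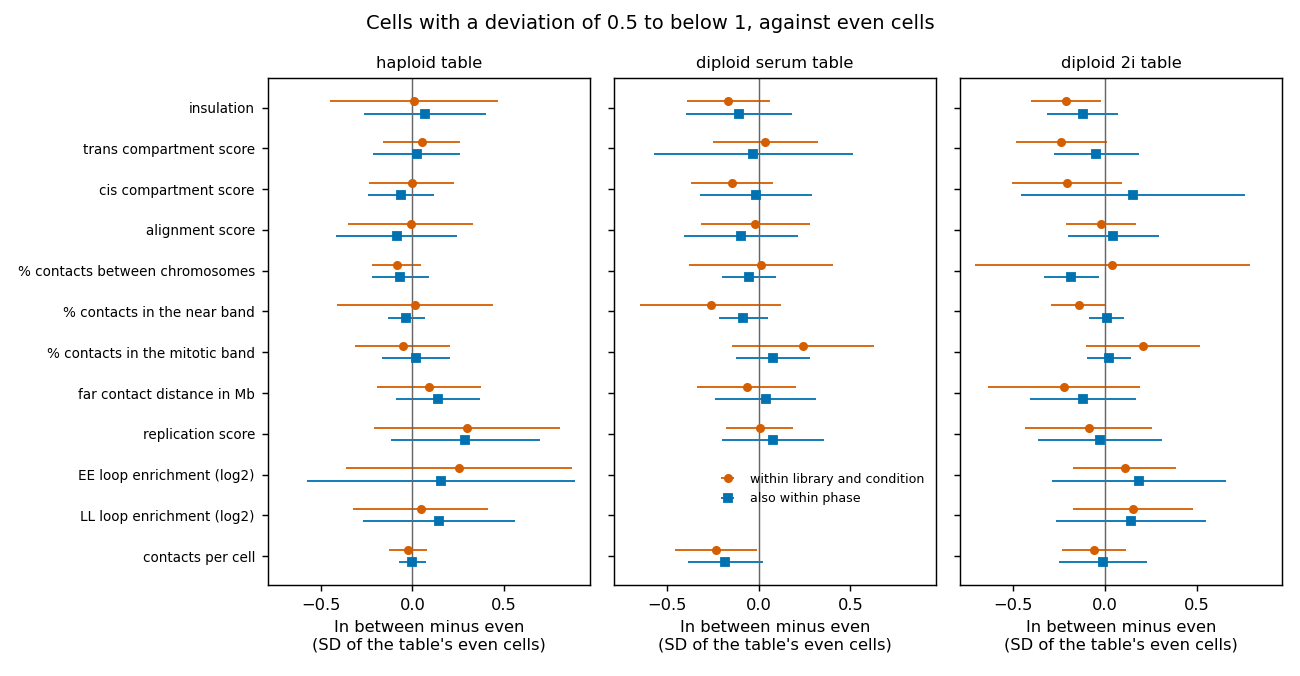
In between minus even difference of each column in units of the SD of the table's even cells, as mean and SD over libraries, for the haploid, diploid serum and diploid 2i tables. Circles compare within library and condition, squares also within the authors' phase. Diploid 2i insulation and trans score lie below 0 as circles and nearer to 0 as squares.

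The quality flag and the coverage deviation were tied together. The highest deviation of a passing cell was 0.9997 in haploid, 0.984 in diploid serum and 0.998 in diploid 2i, so all 246 uneven cells had failed. Of the 112 uneven diploid 2i cells, 89 (79.5%) lay inside the passing range of every other quality column examined, as did 19 of 21 in diploid serum (90.5%) and 110 of 113 in the haploid table (97.3%), where contacts between chromosomes could not be examined. Undigested fragments exceeded the passing range in 3 haploid and 3 diploid 2i uneven cells. Of in between cells, 92.1% passed in the haploid table, 99.4% in diploid serum and 93.2% in diploid 2i, against 87.2%, 98.1% and 92.3% of even cells.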

How the data were processed

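Single-cell Hi-C of mouse ES cells was used as deposited in 3 tables of cells by features and a list that pairs cells with libraries. Reads were aligned with Bowtie2 to mm9, per the submitters' processing notes. Contacts per cell are a deposited count. The deposited shares of contacts and fragments are each a fraction, shown in percent. The coverage deviation, compartment, insulation, alignment and replication values are deposited scores without a stated scale, and loop enrichments are deposited log2 values. The distance of far contacts is deposited in bp and shown in Mb. The 4 nuclear RNA samples were not used here. Members and lists were chosen with earlier results of these data known. No gene was to be named, every folding, depth and quality column was to be reported, and libraries were to be named where they had the highest or lowest share or changed a call; cell type markers did not apply.

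Batch numbers were joined to libraries through the cell list, and diploid 27 by its title. No column of another sample was used (0 unmatched). Infinite values were dropped. Differences were taken between class means within batch number and condition, needing 5 cells per class, averaged per library weighted by uneven (or in between) cells, and flipped in sign over libraries (exact under 10 libraries, otherwise up to 100000 resamples). The in between comparison, the limits to the passing range and to uneven cells below 1.2, and the comparison of haploid Serum_G1/S with 2i_all were added after seeing the data. Alternatives changed the minimum number of cells, the limits, the contact minimum, the strata, means to medians, depth matching and the libraries used. Analyses used scipy 1.17.1, pandas 2.3.3 and numpy 2.4.6 under Python 3.11.15, with figures from matplotlib 3.10.9. The test was tested on simulated data.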

Additional observations from a re-analysis of the deposited data

Results flagged for a closer look

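The uneven minus even difference in the cis compartment score of haploid 7 was 0.083, far from the other 7 haploid libraries, the nearest of which was at 0.007. In the in between comparison of diploid serum, diploid 5_10 stood apart in contacts between chromosomes, by 2.41 points against 0.110 for the nearest library. Diploid 1_6, which has 5 in between and 6 even cells, stood apart in undigested fragments, by 4.75 points against 1.38, and in duplicated fragment ends, by 3.87 points against 0.289. A library was compared with the others of its group in 21 groups, 4 were marked, and chance marks about 5% of groups. The uneven minus even difference was tested between the haploid and diploid 2i tables in SD units of even cells, and it differed by 0.32 in contacts per cell, 0.43 in the cis compartment score, 0.50 in the trans compartment score and 0.20 in duplicated fragment ends (exact permutation of library labels, adjusted p = 0.0298, 0.0455, 0.0298 and 0.0365). For contacts and duplicated ends the haploid SD was widened by outlying even cells, and contacts did not pass in their own unit. Contacts were also part of the selection, so their difference is a description. The trans score did not pass with a minimum of 3 cells (permutation adjusted p = 0.0676). The part of contacts between chromosomes in these differences was not tested, since uneven haploid cells have no such value.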

How the results depend on the processing

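In diploid 2i, 6 of 7 uneven against even columns passed, contacts, part of the selection, among them, and 5 to 6 when each library was left out in turn. The count was 3 at matched depth, 1 with cells of 0.5 to below 1 in their place, and 0 with a minimum of 10 cells (3 libraries left), with the raised contact minimum (9 libraries), for uneven cells below 1.2 (6 libraries), inside the passing range of the other quality columns (10 libraries) and in those cells at matched depth. Without pairing classes within a library (no replicate block) it was also 0, and the trans score difference was unchanged at -0.066 (adjusted p = 0.0571). Over all alternatives contacts, the cis score and alignment each lost the call in 8 fits and kept it in 18. The trans score lost it in 6 and kept it in 20. Contacts between chromosomes turned sign inside the passing range (-0.790 points, and -0.718 at matched depth), and duplicated ends did there at matched depth (0.094 points). Undigested fragments, which passed in no fit of the uneven cells, turned sign in diploid 2i to 0.285, 0.346, 0.541, 0.041, 0.032 and 0.177 points with minimums of 3 and 10, passing even cells, even cells below 0.4, strata by library and inside the passing range, and lay between -0.471 and 0.164 in leave-one-out fits.

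No haploid column passed in any fit, and signs turned. Contacts were 2444, 1855, 1418, 2277 and 2138 higher with medians, matched depth, passing even cells, inside the passing range and there at matched depth (leave-one-out -18795 to 2811). The cis score differed by 0.00206, 0.00669, 0.00628, 0.00324, 0.00631 and 0.018 with a minimum of 3, medians, uneven cells at 1.5 or more, inside the passing range, there at matched depth and below 1.2 (leave-one-out -0.017 to 0.00036). The trans score differed by 0.00485 for in between cells, 0.00114 and 0.00396 inside the passing range without and with matched depth, and 0.014 below 1.2 (leave-one-out -0.011 to 0.00297). Undigested fragments differed by 0.151, 0.896, 0.642, 0.313, 0.059 and 0.00143 points with a minimum of 10, passing even cells, uneven cells at 1.5 or more, in between cells, inside the passing range and there at matched depth. Duplicated ends differed by 0.056, 0.012, 0.041, 0.057, 0.048, 0.069 and 0.063 points with minimums of 3 and 10, medians, matched depth, passing even cells, inside the passing range and there at matched depth (leave-one-out -0.092 to 0.074).

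The count of columns that differed between haploid and diploid 2i was 4, and 0 inside the passing range. With a minimum of 3 cells, over 10 haploid and 14 diploid 2i libraries, the trans score did not pass (permutation adjusted p = 0.0676). Contacts, the cis score and duplicated ends passed there (permutation adjusted p = 0.0244, 0.0353 and 0.0244). That adjustment also covered the tests of diploid serum against diploid 2i. Contacts lost the call in their own unit. Of in between columns in diploid 2i, 4 passed, and 1 to 4 in leave-one-out fits. Insulation passed in each of 15 such fits, the trans score in 9, the mitotic band in 8 and the near band in 4. Insulation and both bands rest on 14 of the 15 libraries, so the fit without the remaining library removed none of their values. Leaving out diploid 20, 24, 25, 28_29, 30_31 or 34_35 left 1. The count was 1 within phase, 2 with the near band matched, 1 at matched depth, and 0 with medians, a minimum of 10, cells of 0.7 to below 1, or no replicate block. Contacts between chromosomes turned sign to -0.628, -0.813, -0.539, -0.534, -0.761 and -0.813 points within phase, with the near band matched, medians, a minimum of 10, cells of 0.7 to below 1 and passing cells, and lay between -0.511, without diploid 11, and 0.244 in leave-one-out fits. Within phase the cis score differed by 0.017 and the near band by 0.091 points. The cause of these turns was not tested. Matching uneven cells on the near band, limiting them by the mitotic band and requiring passing cells in both classes were not run, since no uneven cell has these values or passed. Uneven diploid 2i cells at 1.5 or more left under 2 libraries. The raised contact minimum gave uneven shares of 7.39% in haploid, 2.19% in diploid serum and 4.55% in diploid 2i cells. Shallow cells, the number of libraries and the 5 to 21 uneven cells behind a library mean limit the precision.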
